A study of Rattus norvegicus with 4 samples.

Results

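The augmin (HAUS) complex was followed in rat embryonic stem cells (ESCs) through the genes named *Haus1* to *Haus8*, which encode its 8 subunits. These names were looked up among the 34773 genes of the deposited table. Of the 8 names, 7 were found there and *Haus2* was not analysed here. *Haus1* drew attention to the complex because it was among the genes with the strongest drop between the groups described next, so the values of the subunits in that contrast are given as a description and support nothing.

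Augmin binds the side of an existing microtubule and recruits the gamma-tubulin ring complex, which then starts a new microtubule as a branch. By this route it supplies much of the microtubule mass of the mitotic spindle and helps to keep spindles bipolar. The subunits assemble as a pair of tetramers. In one, HAUS1, HAUS3, HAUS4 and HAUS5 form long coiled coils, and in the other HAUS2, HAUS6, HAUS7 and HAUS8 make contact with the microtubule, with HAUS8 binding it directly and HAUS6 contacting NEDD1, the adaptor of the gamma-tubulin ring complex.

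Poly(A) RNA was sequenced from 4 libraries. The control, labelled WT, was 1 library of DA-5-3 GFP, a rat ESC line that carries a GFP reporter at *Rex1*. The other 3 were *Thop1*-KO subclones 1, 2 and 3, each a puromycin-selected colony grown from that line after Cas9 editing of *Thop1*, the gene of thimet oligopeptidase. All carried the reporter, and by the methods rat ESCs grew in 2i/LIF medium with feeder cells beneath them. The paper treats DA-5-3 as diploid, while the deposited design text speaks of haploid ESCs. The control was a single culture and the subclones came from a single editing experiment, so genotype, culture and library preparation cannot be told apart.

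Counts on genes summed to between 15405499 and 17936544 in each library. *Thop1* itself was at 370.1 CPM (gene counts relative to the library total, scaled by trimmed-mean or TMM factors) in the control and at 109.9, 92.5 and 149 in the subclones. *Pou5f1*, the core pluripotency factor, was at 4794 CPM in the control and at 3889 to 4842 in the subclones. Of the 10 ESC markers named, 8 were found and tested, and *Zfp42* (*Rex1*) and *Dppa2* were not found under those names. Among the 8, 3 were called higher, where 8.62% of all genes were, and 5 were not called. The 3 were the pluripotency genes *Esrrb* (15.9 CPM in the control against 286 to 330.1), *Tfcp2l1* (34.5 against 231 to 279) and *Dppa4* (63.2 against 131 to 149). The control lay below every subclone for 4 of the 8, as for 38.1% of all genes. It lay inside their range for the other 4, *Pou5f1*, *Nanog*, *Klf4* and *Tdgf1*, whose log2 fold changes ran from -0.33 (*Klf4*) to -0.02 (*Tdgf1*). Of the 6 fibroblast markers that could be tested, 6 were higher in every subclone than in the control, as were 38.1% of all genes. EdgeR called *Col5a1* alone. DESeq2 called 2 higher of the 5 that it gave an adjusted p, and it called 21.5% of all genes in either direction. The summed CPM of that list was 249.6 in the control and 435.4 to 849.6 in the subclones, although *Dcn*, *Lum* and *Thy1* were at 0 in every library. *Col1a1* held most of this sum, at 190 CPM in the control and 304 to 555 in the subclones. Counts in the control were only 3 for *Postn*, 22 for *Twist1* and 24 for *Pdgfrb*. For the primitive endoderm list the sums were 964.4 and 1391 to 1991, with 6 of 8 tested genes higher and 2, *Gata4* and *Col4a1*, lower in every subclone. Most of that sum was *Lama1* (848 CPM in the control and 1215 to 1779 in the subclones). EdgeR called 0 of the 8 (5 at an unadjusted p under 0.05), and DESeq2 called 1. The part of these cells in the values below was not tested, and in bulk RNA fewer cells of a type cannot be told apart from less RNA per cell.

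Promoters of all 8 subunits are listed by RefSeq on build GRCr8 as 250 bases before and 50 after the start of the gene. Those of *Haus1* and *Haus7* are printed because these genes mark the ends of what follows, *Haus1* having nearly no counts in the subclones and *Haus7* nearly the same level in all 4 libraries. Capitals mark CCAAT (or ATTGG, the same letters on the other strand) and TTCCCGC (or GCGGGAA), short motifs known from NF-Y and E2F sites. The *Haus1* promoter is chr18:73561708-73562007 and the *Haus7* promoter chrX:156325354-156325653, both on the minus strand of GRCr8. The gene coordinates given further on are those of the deposited annotation, whose build is not given in the sources used here, and which lists *Haus7* on the plus strand.
Haus1: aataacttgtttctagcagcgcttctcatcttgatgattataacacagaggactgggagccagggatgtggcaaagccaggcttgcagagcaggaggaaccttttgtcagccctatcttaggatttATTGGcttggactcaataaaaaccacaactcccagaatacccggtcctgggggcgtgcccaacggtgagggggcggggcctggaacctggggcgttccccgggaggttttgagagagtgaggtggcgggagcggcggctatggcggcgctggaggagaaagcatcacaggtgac
Haus7: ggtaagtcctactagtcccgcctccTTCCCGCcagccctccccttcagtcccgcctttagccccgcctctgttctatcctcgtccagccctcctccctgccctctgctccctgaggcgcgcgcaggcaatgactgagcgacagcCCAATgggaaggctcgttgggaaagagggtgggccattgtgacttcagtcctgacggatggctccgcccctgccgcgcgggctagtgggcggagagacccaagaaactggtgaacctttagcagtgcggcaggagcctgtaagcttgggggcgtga
The 1 marked motif of *Haus1* starts 124 bases before the gene, and those of *Haus7* start 225 bases (TTCCCGC) and 106 bases (CCAAT) before it. CCAAT was found in 3 of the 8 *Haus* promoters and in 37.5% of all 33469 promoters. TTCCCGC was found in 4 of the 8, those of *Haus3*, *Haus4*, *Haus5* and *Haus7*, and in 4.21% of all promoters. TTTGAA, the letters of the cell cycle homology region, was found in 0 of the 8 and in 18.3% of all promoters, both strands having been searched for each motif and none of the matches in the 8 promoters overlapping another. The 8 promoters held 12 to 29 CG pairs each, against a median of 7 over all promoters. Their share of G and C letters was 50.3% to 65.0%, against a median of 51.7%. How this composition bears on the motif counts was not tested.

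Per length of gene, the subunits were far from equal in ESCs. In FPKM (fragments scaled for gene length and library size) as deposited, the control held 61.0 of *Haus7*, 41.1 of *Haus8*, 40.0 of *Haus4*, 11.5 of *Haus1*, 6.31 of *Haus5*, 1.62 of *Haus3* and 1.19 of *Haus6*. *Haus7*, *Haus8* and *Haus4* together made up 87.3% of the summed FPKM of the 7 genes in the control, and 90.8% to 92.7% in the subclones. In the subclones the order by mean FPKM was *Haus4*, *Haus7*, *Haus8*, *Haus5*, *Haus6*, *Haus3* and *Haus1*. The ranges of *Haus4* (40.3 to 84.0) and *Haus7* (55.3 to 66.8) overlapped there, whereas those of all other neighbours in this order did not. *Haus1* was thus the 4th of the 7 by level in the control and the last in every subclone. The 7 genes summed to 162.8 FPKM in the control and to 195.6, 140.1 and 167.0 in subclones 1, 2 and 3, so the control lay within the range of the subclones.

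**Figure D1:**
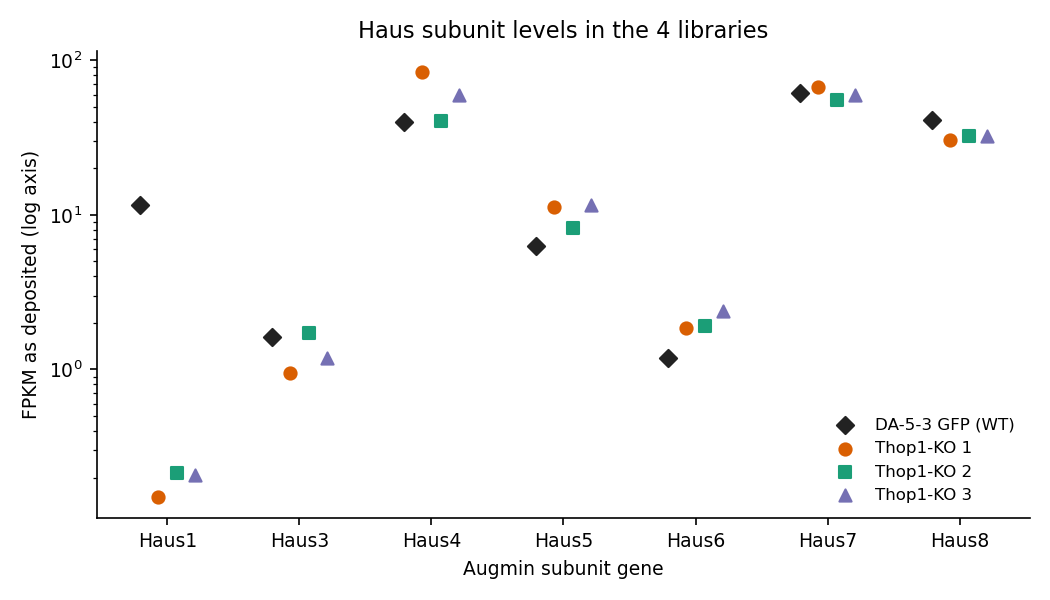
Deposited FPKM (log axis) of each Haus subunit in the control library (diamond) and in Thop1-KO subclones 1, 2 and 3 (circle, square, triangle), 1 point per library. Haus1 drops from 11.5 in the control to between 0.15 and 0.21 in the subclones, while in CPM the single subclones hold 58.5% to 208% of the control for the other 6 genes.

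*Haus1* (ENSRNOG00000046666), a coiled-coil subunit, had 273 counts in the control and 4, 6 and 6 counts in subclones 1, 2 and 3. In CPM it was at 18.4 in the control and at 0.239, 0.339 and 0.334 in the subclones. The subclones therefore held 1.30%, 1.85% and 1.82% of the control level. All 3 lay far below the control. The 95% exact Poisson interval, which covers counting error only, was 1.09 to 10.2 counts for subclone 1, 2.20 to 13.1 for subclones 2 and 3, and 241.6 to 307.4 for the control. The log2 fold change, fitted over all genes with edgeR, was -5.88 (standard error 0.42, n = 3 subclones against 1 control). Of the 15028 genes tested, 24 had a lower log2 fold change. Of the 8237 genes with 100 or more counts in the control, 9 had at most 10 counts in every subclone, *Haus1* among them.

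The deposited annotation puts *Haus1* on chromosome 18 at 74187162 to 74198369 (minus strand), and its exons add up to 1573 bases. The whole gene sits inside the interval of *Pstpip2*, a gene on the plus strand, which had 0 counts in the control and 3, 0 and 2 in the subclones. A second gene model, LOC108348136, carries the same description as *Haus1* and begins 35211 bases below it on the same strand, its exons adding up to 837 bases. It had 0 counts in all 4 libraries. Reads that fit both models, or the exons of 2 overlapping genes, can be lost or moved in counting, and neither the treatment of such reads nor the use of strand is given in the sources used here. The counts of *Haus1* are uncertain to that extent, in the control and in the subclones alike.

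Of the nearest tested genes on either side of *Haus1*, 1 was called higher and the other was not called. *Atp5f1a*, which encodes the alpha subunit of ATP synthase, lies 22666 bases below and had 1096 CPM in the control against 1379 ± 72.7 (SD, n = 3) in the subclones, or 0.33 ± 0.20 on the log2 scale (fold change with its standard error; edgeR's quasi-likelihood adjusted p = 0.274). *Epg5*, an autophagy gene 101561 bases above, rose from 3.23 CPM to 18.6 ± 3.84 (SD, n = 3), or 2.52 ± 0.44 on the log2 scale (edgeR's adjusted p = 0.0193). The next tested gene on each side, RGD1308601 and *Slc14a1*, had log2 fold changes of 0.10 (standard error 0.35) and -1.37 (standard error 1.43). Neither was called, and *Slc14a1* had only 11 counts in the control and 0, 8 and 7 in the subclones. Beyond *Slc14a1*, a tested model of *Slc14a2* had 60 counts in the control and 12, 23 and 26 in the subclones. Its log2 fold change was -1.80 (standard error 0.59), and it was not called.

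**Figure D2:**
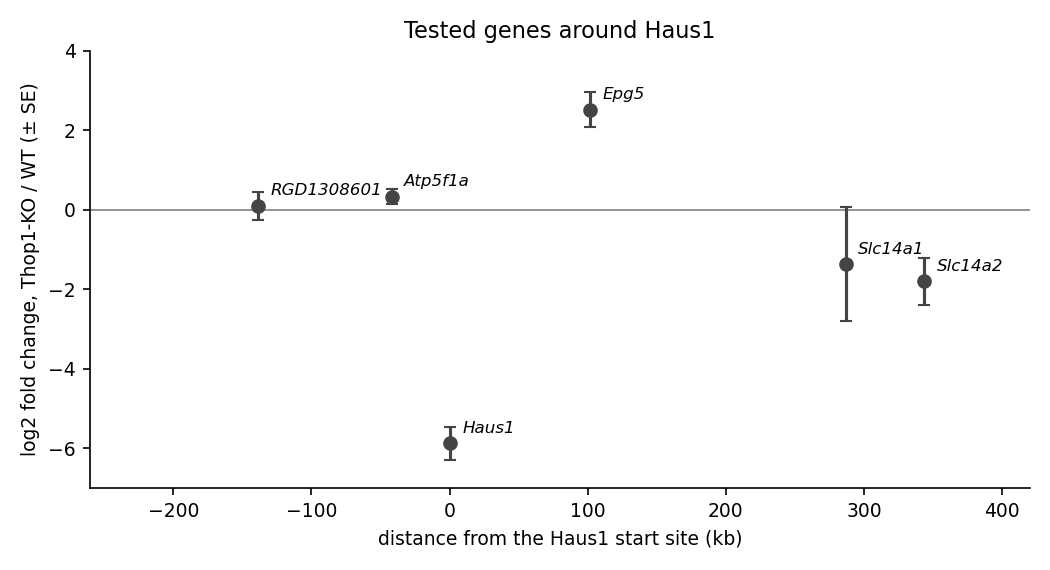
Fitted log2 fold change of Thop1-KO against WT, with its standard error, for the tested genes around Haus1, by the distance of their start site from that of Haus1 in kb (positive towards higher coordinates). Haus1 is at -5.88, Atp5f1a at 0.33 and Epg5 at 2.52.

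Of the 7 subunits, all of which passed the filter on low counts, 1 was called lower and 6 were not called when edgeR's quasi-likelihood p-values were adjusted over all genes tested (Benjamini-Hochberg, adjusted p under 0.05). DESeq2 also called 1, where it called 21.5% of all genes. Over all genes in edgeR, 5.17% were called lower, 8.62% higher and 13.8% in either direction. The called subunit was *Haus1*, whose contrast chose the complex, so nothing is read from this count. The log2 fold changes of the other 6 ran from -0.37 to 0.78, and their median was 0.30. With *Haus1* included the median was -0.01, beside 0.06 over all genes tested. For 3 of the 7 genes the lowest subclone was above the control, and for 2 the highest was below it, against 38.1% and 37.6% of all genes, or 75.7% for both directions together. Without subclone 2 the same test called *Haus4* and *Haus5* higher beside *Haus1*, 3 of the 7, while it called 5572 of all genes (37.9%). Without subclone 1 and without subclone 3 it called 1 of the 7, *Haus1*, and 13.6% and 3.1% of all genes.

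The partners of HAUS1 in its tetramer were not called, and *Haus5* and *Haus4* were higher and *Haus3* lower in the mean of the subclones than in the control. *Haus5* (chromosome 1, 89109750 to 89124132) was at 58.0, 42.3 and 60.2 CPM in subclones 1, 2 and 3 and at 32.5 in the control. Each subclone was above the control, and the log2 fold change was 0.72 (standard error 0.32). *Haus4* (chromosome 15, 33182128 to 33193537) was at 131, 63.2 and 95.1 CPM in the subclones and at 62.8 in the control. Subclone 2 stood level with the control and subclone 1 at 208% of it, so that *Haus4* was the most variable subunit, with a coefficient of variation of 35.2%. Its log2 fold change was 0.62 (standard error 0.42). *Haus3* (chromosome 14, 81837809 to 81856830) had 50 counts in the control and only 33, 63 and 45 in the subclones, or 3.36 CPM against 1.97, 3.56 and 2.50. The control lay inside the range of the subclones, and a log2 fold change of -0.33 with a standard error of 0.54 leaves its direction undetermined.

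In the microtubule-binding tetramer, *Haus6* was higher and *Haus8* lower in every subclone than in the control, and *Haus7* was level, without a call for any of them. *Haus7* (chromosome X, 157353577 to 157372809), the most abundant subunit per length in the control, was at 133, 111 and 121 CPM in the subclones and at 123 in the control. These values overlapped. The fitted log2 fold change, -0.01 ± 0.24 (SE), turned to 0.05 with library size as the only scaling and without subclone 2. *Haus8* (chromosome 16, 19654798 to 19669196), which binds the microtubule, was at 45.1, 48.2 and 48.8 CPM in the subclones and at 61.0 in the control. All subclones lay close together, with a coefficient of variation of 4.25%, and stood at 73.9% to 80.0% of the control. The log2 fold change was -0.37 (standard error 0.25). *Haus6* (chromosome 5, 104947427 to 104980641), which reaches the gamma-tubulin ring complex, had 50 counts in the control and 87, 95 and 122 in the subclones, or 3.36 CPM against 5.19, 5.37 and 6.79. The subclones did not overlap the control, and the log2 fold change was 0.78 (standard error 0.44). Copies named after *Haus4* (1) and *Haus8* (5) are listed by RefSeq, so that some reads of these genes may fit more than 1 place. *Haus6* also encloses a small Cajal body RNA with 0 to 3 counts and *Haus3* a U6 gene with 0 counts. Among the nearest tested neighbours on each side of the 6 genes, most were not called. Those called higher were *Plin2*, a lipid droplet gene 3772 bases from *Haus6*, and *Bgn*, the proteoglycan gene 22372 bases from *Haus7*. Over all genes 8.62% were called higher. The fold changes of *Plin2* and *Bgn* on the log2 scale were 1.72 ± 0.36 (SE, edgeR's adjusted p = 0.0288) and 2.81 ± 0.57 (edgeR's adjusted p = 0.0276). None of these neighbours was called lower.

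**Figure D3:**
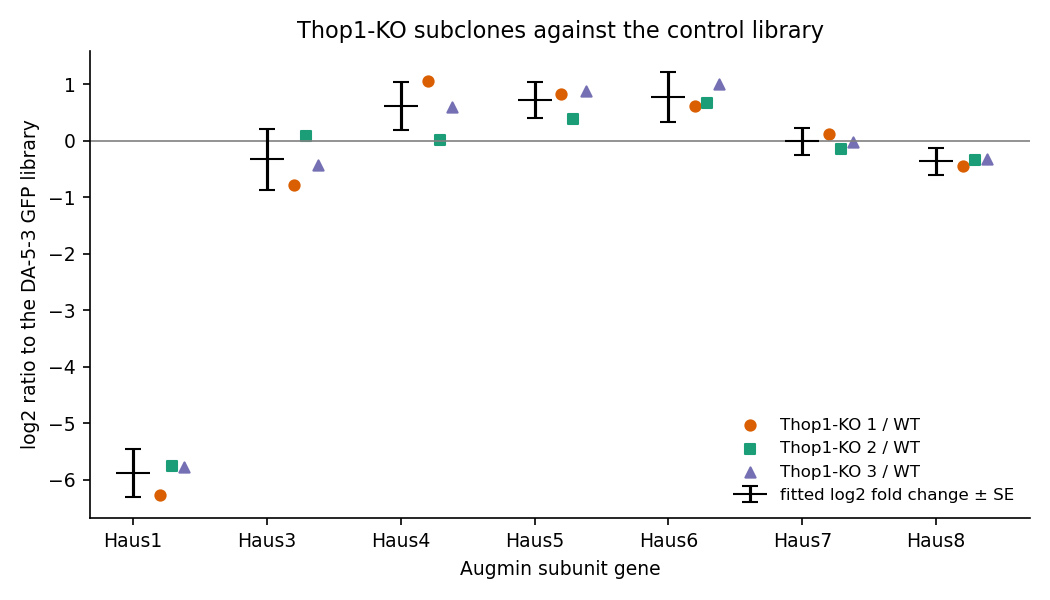
Log2 ratio of Thop1-KO to the control library for each Haus subunit. The horizontal mark and bar are the fitted fold change with its standard error, and the circle, square and triangle are subclones 1, 2 and 3. Haus1 lies at -5.88 and the other 6 genes between -0.37 and 0.78.

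The genes that work next to augmin were taken as 3 lists. Of 15 genes of the gamma-tubulin ring complex and its recruitment, 14 were tested. Of these, 2 were called higher, where 8.62% of all genes were, and 12 were not called. The median log2 fold change of the list was 0.30. *Tubgcp6*, a large subunit of the ring complex, rose from 6.12 CPM in the control to 48.2, 40.9 and 49.1 in the subclones, or by 2.91 ± 0.34 on the log2 scale (SE, edgeR's adjusted p = 0.00754). *Mzt1*, a small protein that binds ring complex subunits, rose from 0.673 CPM to 4.89, 3.45 and 3.78, or by 2.57 ± 0.60 on the log2 scale (edgeR's adjusted p = 0.0381). Its control value rests on 10 counts, against 82, 61 and 68 in the subclones. Without subclone 1 or without subclone 3 the call of *Mzt1* was lost, and 1 gene of the list was called. *Nedd1*, the adaptor that HAUS6 contacts, was at 11.4 CPM in the control and 14.7, 15.4 and 15.2 in the subclones (edgeR's adjusted p = 0.412).

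Of 26 spindle assembly genes, all were tested, 2 were called lower, where 5.17% of all genes were, and 24 were not called. The median log2 fold change of the list was -0.21. *Kif15*, a spindle kinesin, fell from 19.7 CPM to 4.35, 6.67 and 6.96 in the subclones (log2 fold change -1.72, adjusted p = 0.0332, edgeR). *Ckap5*, a microtubule polymerase, fell from 47.0 CPM to 12.9, 19.0 and 21.0 (log2 fold change -1.41, adjusted p = 0.0399, edgeR). The 20 mitotic cell cycle genes gave 19 tested, 15 not called and 4 called lower (against 5.17% of all genes), with a median of -0.36. The 4 called lower were *Ube2c*, the ubiquitin-conjugating enzyme of the anaphase-promoting complex (log2 fold change -0.98), *Ttk*, a spindle checkpoint kinase (-1.90), *Top2a*, a DNA topoisomerase (-1.05), and *Cks2*, a partner of cyclin-dependent kinases (-0.87, adjusted p = 0.0499, edgeR).
Leaving out 1 library changed these calls. Without subclone 3, edgeR called 0 genes of the spindle assembly list and 0 of the mitotic list, with 4 and 5 genes at an unadjusted p under 0.05, and 457 of all genes (3.1%). Without subclone 2 it called 11 of 26 and 9 of 19, with 37.9% of all genes called. Without subclone 1 it called 2 and 1, with 13.6% of all genes called. DESeq2 called 3 and 5, with 21.5% of all genes called.

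**Figure D4:**
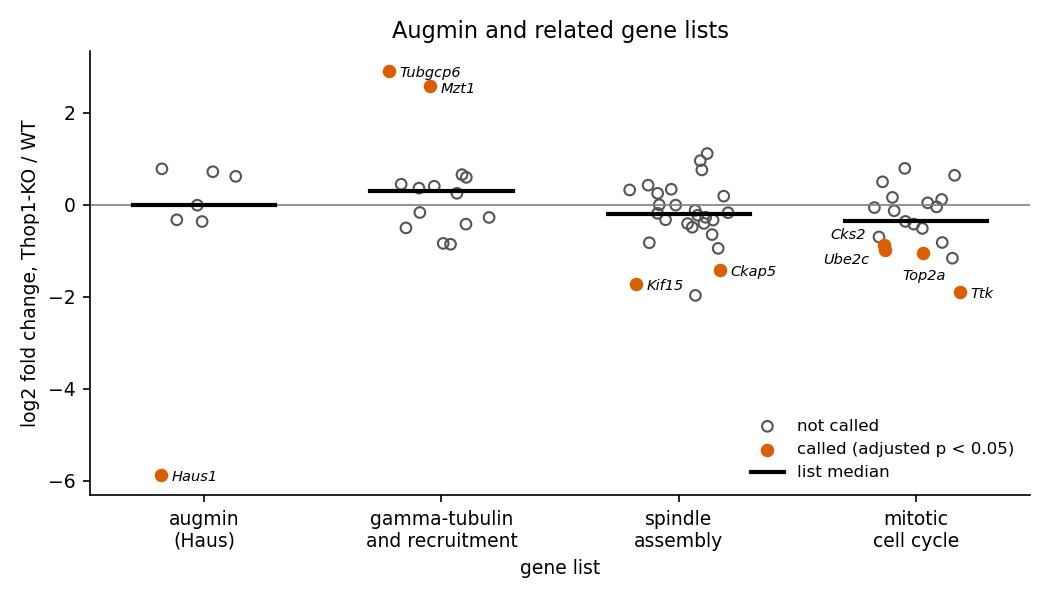
Fitted log2 fold change of Thop1-KO against WT for each tested gene of the augmin, gamma-tubulin, spindle assembly and mitotic cell cycle lists. Filled points were called at an adjusted p under 0.05 by edgeR, and the bars are list medians of -0.01, 0.30, -0.21 and -0.36.

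The genes whose pattern over the 4 libraries came nearest to that of *Haus1* were found by the Euclidean distance between profiles of log2(CPM + 1), each centred on its own mean. Among tested genes with a symbol, the 5 nearest were LOC499235 (distance 0.44), *Polr2h* (0.52), AABR07015078.1 (0.59), AABR07001432.1 (0.78) and AABR07021996.1 (0.80). *Polr2h*, a subunit shared by the nuclear RNA polymerases, had 215 counts in the control and 7, 13 and 9 in the subclones. LOC499235 had 1362 counts in the control and 99, 156 and 117 in the subclones. The control was above all subclones in each of these genes, as the search itself requires, and no other *Haus* subunit was among them. With log2(CPM + 0.1), which gives low counts more weight, 1 of the 5 was kept, *Polr2h*. With log2(FPKM + 1), 4 of the 5 were kept, *Polr2h* among them.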

How the data were processed

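RNA-seq was made from poly(A) RNA of 1 DA-5-3 GFP library (WT) and 3 *Thop1*-KO subclones, grouped by the titles of the samples. The authors deposited raw counts per gene and FPKM values; FASTX, HISAT2 2.0.5 and featureCounts 1.5.0-p3 are named in the paper or in the submitters' processing notes. The genome build, the annotation version and the use of strand are not given in the sources used here. Gene coordinates were copied from the deposited table, and promoters come from RefSeq (GRCr8), matched by symbol for 8 of 8 names.

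The count test was edgeR's quasi-likelihood test (edgeR 4.0.16, R 4.3.3) after TMM normalization, on the 15028 genes that filterByExpr kept at a minimum count of 10. P-values were adjusted by Benjamini-Hochberg, and genes were called at an adjusted p under 0.05. The standard error is the absolute log2 fold change divided by the square root of F. With 1 control the spread comes from the subclones alone, and p-values measure only the spread between these libraries. Exact permutation of 1 against 3 libraries gives no one-sided p below 0.25. The fit was tested on simulated counts, where the median fold change was recovered but the share of false calls, with changed genes present, was above the nominal threshold. The alternatives included DESeq2 1.42.0 and a limma 3.58.1 fit to FPKM, log2-transformed after adding 1 or 0.1, and Python 3.11.15 drew the figures.

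The members and lists were chosen with earlier results of these data known. Named are *Thop1*, the *Haus* genes, overlapping and nearest tested genes, marker genes whose level is given, the called genes of each list (at most 5 in each direction) and the 5 genes most like *Haus1*. Chosen after their values were seen were *Nedd1*, LOC108348136, RGD1308601, *Slc14a1* and *Slc14a2*.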

Additional observations from a re-analysis of the deposited data

How the results depend on the processing

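*Haus1* was called, and lower in *Thop1*-KO, in all 10 alternatives that tested it, with log2 fold changes from -5.98 to -3.40, the latter from limma on log2(FPKM + 1). These alternatives reuse the libraries whose contrast chose *Haus1*, so this count is a description and adds no support. At least 10 counts in every library removes *Haus1* by construction, and 0 of the other 6 subunits were then called by edgeR (0 at an unadjusted p under 0.05; DESeq2 called none of these 6). Leaving out each subclone gave 1 to 3 called subunits, with *Haus4* and *Haus5* added without subclone 2. The 5 subunits other than *Haus1* and *Haus7* kept their sign in all 11 alternatives. *Haus7* changed sign, to 0.0548 with library size only and to 0.0136 without a filter, and ran from -0.0717 to 0.053 with each subclone left out.

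The number of genes called over the whole table was 1378 with limma on log2(FPKM + 0.1), and 457 to 5572 with each subclone left out, where 1 degree of freedom remains among the subclones. Leaving out each subclone gave 1 to 3 called genes of the gamma-tubulin list, 0 to 11 of the spindle assembly list and 0 to 9 of the mitotic list. The spindle assembly list had 4 called genes with upper quartile scaling, 4 with at least 10 counts in every library, 1 with library size only, 1 with limma on log2(FPKM + 1) and 0 with limma on log2(FPKM + 0.1), where 6 had an unadjusted p under 0.05. The mitotic list had 0 called genes with limma on log2(FPKM + 1) and 0 on log2(FPKM + 0.1), with 6 at an unadjusted p under 0.05 in each, and 2 with a fold change of 2 also required. The causes were not tested. Of the 5 genes nearest to *Haus1*, 1 was kept with log2(CPM + 0.1) and 4 with log2(FPKM + 1). No paired analysis was possible because the control has 1 library. Counts were low for *Haus1* in the subclones (4 to 6), for *Haus3* (33 to 63 in all libraries) and for *Haus6* (50 to 122). They were also low for *Mzt1* in the control (10). This limits the fold changes of these genes.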
